A study of Mus musculus with 2 samples.

Results

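The urea cycle was described through 8 genes: the 5 enzymes Cps1, Otc, Ass1, Asl and Arg1, the mitochondrial carriers Slc25a15 and Slc25a13, and the liver glutaminase Gls2. They were chosen by function from a fixed list of symbols, and each was matched to 1 RefSeq accession, so that 8 of 26440 genes in the tables were members. Liver RNA came from BALB/c mice on day 11 after birth, with 1 library from wild-type liver (WT) and 1 from SRSF2-/- liver, whose knockout is called liver specific in the series' own text. SRSF2 is a serine/arginine-rich splicing factor. The labels do not state which promoter drove the deletion, which part of the gene was removed, the sex of the mice or how many mice gave each library.

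The urea cycle turns ammonia, which is toxic to the brain, into urea for excretion, and the complete cycle runs mainly in hepatocytes. Its first steps lie in the mitochondrion, where CPS1 joins ammonia and bicarbonate to carbamoyl phosphate and OTC transfers the carbamoyl group to ornithine. Citrulline then leaves for the cytosol, where ASS1 adds aspartate, ASL releases fumarate and arginine, and ARG1 splits arginine into urea and ornithine. The carrier SLC25A15 exchanges ornithine and citrulline across the inner mitochondrial membrane, SLC25A13 (citrin) exports the aspartate that ASS1 uses, and GLS2 frees ammonia from glutamine. Enzymes of the cycle are found mostly in the periportal part of the liver lobule, and glutamine synthetase, which takes up the remaining ammonia, in the pericentral part.

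No genotype was replicated, so nothing was tested and every value describes these 2 libraries alone. WT had 22407743 reads on annotated transcripts and SRSF2-/- had 22111605. Levels are in FPKM (fragments normalised to transcript length and library size, as deposited). A fold is the FPKM of one library divided by that of the other, and its 95% interval is the Clopper-Pearson interval computed from the reads. These intervals cover counting error only, and may be too narrow even for that, since amplified reads are not independent molecules. Log2 ratios are of SRSF2-/- over WT after adding 1 FPKM to both, and a gene with at least 1 FPKM in either library was counted as lower or higher when that ratio reached 2-fold. The median log2 ratio over the 12477 genes so tested was 0.55, not 0, and ratios relative to this median are called centred. Srsf2 had 1998 reads in WT and 832 in SRSF2-/-.

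The urea cycle genes did not move together. Otc was far lower in the SRSF2-/- library and Gls2 was lower, Ass1 was higher on the deposited scale, and the other 5 members lay within 2-fold. Of the 8 members, all of which passed the filter, 2 were at least 2-fold lower, against 2.95% of all tested genes. One member, or 1 of 8, was at least 2-fold higher, against 19.2% of all tested genes, so the share of higher members does not exceed the background. Among the 4118 tested genes with a mean of at least 10 FPKM, a range that holds all members, 5.61% were at least 2-fold lower and 20.8% higher. The median log2 ratio of the members was -0.12, or -0.68 when centred. After centring, 4 members were at least 2-fold lower (Otc, Gls2, Asl and Arg1), against 6.66% of all genes, and 0 were higher, against 5.67%. These centred shares include genes of low FPKM and were not computed for genes with a mean of at least 10 FPKM.

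**Figure D1:**
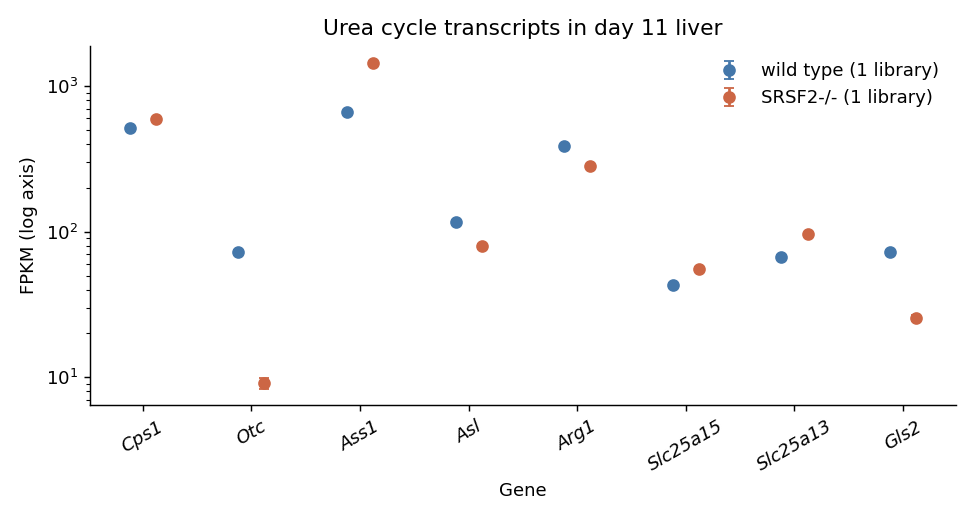
FPKM (log axis) of the 8 members in the wild-type library (blue) and the SRSF2-/- library (orange), 1 library each; bars are 95% Poisson counting intervals, mostly smaller than the points. Otc drops from 73.1 to 9.13 FPKM while Ass1 stands at 668 and 1447 FPKM.

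The upstream sequences of Otc and Ass1 are shown because these were the members with the lowest and the highest ratio. Each is the 250 bases before the transcript start in RefSeq (assembly GRCm38.p6), read 5′ to 3′ on the gene's strand, at chrX:10252055-10252304 (plus strand) for Otc and chr2:31470020-31470269 (plus strand) for Ass1. The read tables were made on mm9, so these coordinates belong to RefSeq and not to the reads. Capitals mark matches to the searched motifs, of which Otc has none.
Otc: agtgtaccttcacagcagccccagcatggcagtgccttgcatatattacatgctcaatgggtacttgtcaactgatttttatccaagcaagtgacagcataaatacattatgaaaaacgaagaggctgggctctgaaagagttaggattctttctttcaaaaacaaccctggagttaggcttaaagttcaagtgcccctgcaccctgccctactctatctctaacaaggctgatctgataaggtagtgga
Ass1: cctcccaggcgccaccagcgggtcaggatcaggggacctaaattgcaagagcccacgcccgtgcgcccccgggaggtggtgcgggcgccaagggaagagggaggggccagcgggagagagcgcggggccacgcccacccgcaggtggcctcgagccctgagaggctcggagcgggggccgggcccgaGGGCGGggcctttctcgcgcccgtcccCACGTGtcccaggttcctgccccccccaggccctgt

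The 2 sequences differ in base composition. The Otc window is 43.6% G and C with 1 CpG, and the Ass1 window is 75.6% G and C with 23 CpG, against a median of 52.4% over 32536 promoter windows of the same length. The motifs searched, on both strands, were the C/EBP motif TTGCNNAA, the HNF4 core motif CAAAGT, the E-box CACGTG, the GC box GGGCGG, the cyclic AMP element TGACGTCA and the TATA motif TATAAA. They occur in 9.57%, 12.6%, 6.04%, 33.0%, 1.56% and 12.3% of all windows, in that order. Ass1 has a GC box from 63 to 58 bases and an E-box from 36 to 31 bases before its start. Promoter windows were at hand for 4 members, and the E-box letters also stand in the windows of Slc25a13 and of 1 of the 2 starts of Slc25a15. These matches are a description of the letters and not of binding.

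Among the mitochondrial steps, Cps1 and Otc went apart. Cps1 (RefSeq NM_001080809), the entry enzyme, had 76129 reads in WT and 87375 in SRSF2-/-, or 515 and 599 FPKM. Its level was 1.16-fold higher (1.150 to 1.173) as deposited, but the log2 ratio of 0.22 turned to -0.34 when centred and was also below 0 when the libraries were scaled on their upper quartile or without the 20 most abundant genes. Otc (NM_008769), which uses the carbamoyl phosphate that CPS1 makes, had 4392 reads in WT and 542 in SRSF2-/-, or 73.1 and 9.13 FPKM. This is 8.01-fold lower (7.32 to 8.77), with a log2 ratio of -2.87 (-3.42 centred). It was the 37th lowest ratio of the 12477 tested genes.

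A ratio of 2 transcripts within a library does not depend on how the libraries were scaled. Cps1 stood 7.05-fold above Otc in WT (6.84 to 7.27) and 65.6-fold above it in SRSF2-/- (60.3 to 71.3), with Woolf 95% intervals that cover counting error only. The Otc to Cps1 ratio was thus 9.30-fold lower (8.50 to 10.2) in the SRSF2-/- library. Otc was the 612th most abundant of all genes in WT and the 5088th in SRSF2-/-, whereas Cps1 stood 87th and 77th.

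Otc lies on the X chromosome. The libraries also differed in Xist, the RNA that silences one X chromosome in females, at 27.4 FPKM in WT and 0.0138 FPKM in SRSF2-/-. The 339 tested X-linked genes had a median log2 ratio of 0.44, with 2.65% of them at least 2-fold lower and 13.9% higher, beside 0.55, 2.95% and 19.2% over all tested genes. Otc had the second lowest ratio among them after Xist. The next lowest was Rgn at -2.19, the gene of the liver protein regucalcin. The part of sex in the Otc difference was not tested.

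**Figure D2:**
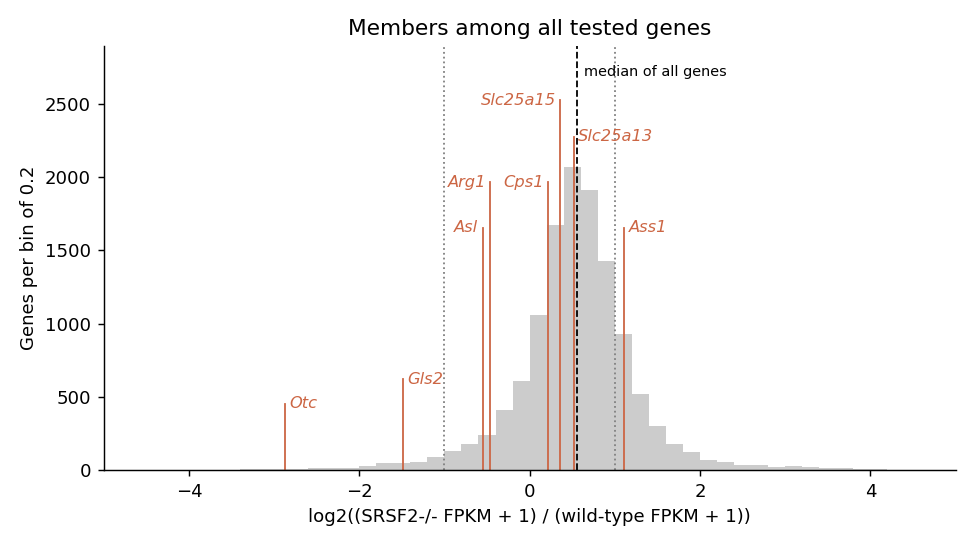
Log2 ratio (x axis) of all 12477 tested genes in bins of 0.2 (grey, number of genes on the y axis), with the 8 members as orange lines whose height has no meaning; dotted lines mark 2-fold and the dashed line the median of all genes. Otc and Gls2 lie left of the 2-fold line, Ass1 just right of it, and 7 of the 8 members left of the median.

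The cytosolic enzymes also went apart, and Ass1 moved to a larger share of the pool. Ass1 (NM_007494), which condenses citrulline and aspartate to argininosuccinate, had 28915 reads in WT and 61866 in SRSF2-/-, or 668 and 1447 FPKM. It was 2.17-fold higher (2.14 to 2.20), and 85.6% of tested genes had a lower ratio. The log2 ratio of 1.11 fell short of 2-fold once centred (0.56), and was 0.78 when scaled without the 20 most abundant genes.

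Asl and Arg1 were lower and within 2-fold on the deposited scale. Asl (NM_133768), the lyase that splits argininosuccinate, had 5028 and 3374 reads, or 117 FPKM in WT and 79.3 FPKM in SRSF2-/-, and was 1.47-fold lower (1.41 to 1.54). Arg1 (NM_007482), the hepatic arginase that releases urea, had 15259 and 10932 reads, or 389 and 282 FPKM, and was 1.38-fold lower (1.35 to 1.41). Relative to the median of all genes their log2 ratios were -1.11 and -1.02, just past 2-fold. Only 5.72% of tested genes had a lower ratio than Asl and 6.50% than Arg1. Ass1 exceeded Asl 5.73-fold in WT (5.56 to 5.90) and 18.3-fold in SRSF2-/- (17.6 to 18.9). The Arg1 to Asl ratio was 3.34 (3.23 to 3.44) and 3.56 (3.43 to 3.70), so this pair kept nearly the same proportion.

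The carriers were the members closest to the bulk of genes. Slc25a15 (NM_181325), the ornithine carrier, had 3945 and 5028 reads, or 43.0 FPKM in WT and 55.5 FPKM in SRSF2-/-, and was 1.29-fold higher (1.24 to 1.35). Slc25a13 (NM_015829), citrin, had 5552 and 7884 reads, or 67.0 and 96.3 FPKM, and was 1.44-fold higher (1.39 to 1.49). Each was counted under 1 accession of 2 curated RefSeq transcripts. Centring turned both directions, to log2 ratios of -0.19 and -0.04, as did scaling on the upper quartile. In WT the ornithine carrier stood below Otc, whose product it carries, at 0.589 of the Otc level (0.564 to 0.615). In SRSF2-/- it stood 6.08-fold above Otc (5.57 to 6.65).

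Gls2 (NM_001285779), which supplies ammonia from glutamine in periportal hepatocytes, had 4827 reads in WT and 1664 in SRSF2-/-, or 73.1 and 25.5 FPKM. It was 2.87-fold lower (2.71 to 3.03), with a log2 ratio of -1.48 (-2.04 centred). The accession is 1 of 3 curated RefSeq transcripts of the gene, so other isoforms may not be in the value. Exons of Gls2 and Spryd4 overlap on opposite strands in the GENCODE annotation, and whether counting used strand is not stated, so their reads may mix. Spryd4 had 996 and 805 reads. For the other 7 members the annotation held no overlapping exon of another gene.

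The order of the members by FPKM changed below the leading 3. Ass1, Cps1 and Arg1 were the highest in both libraries, in that order. In WT they were followed by Asl, then Gls2 and Otc, whose counting intervals (71.1 to 75.2 and 70.9 to 75.3 FPKM) overlap almost fully, then Slc25a13 and Slc25a15. In SRSF2-/- the order went on with Slc25a13, Asl, Slc25a15, Gls2 and Otc. Apart from Gls2 and Otc in WT, the intervals of neighbours in either order did not overlap, which speaks of counting error and not of the spread between mice.

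The members together summed to 1946 FPKM in WT and 2594 FPKM in SRSF2-/-, and took 0.643% and 0.808% of all reads. The ratio of these sums, 1.33, is on the deposited scale and lies below the median ratio of all tested genes there (log2 ratio 0.55). Without Ass1 the sum was 1278 and 1147 FPKM, so the larger sum came with Ass1. The read share without Ass1 was 0.514% in WT and 0.528% in SRSF2-/-. Ass1 made up 34.3% of the summed FPKM in WT and 55.8% in SRSF2-/-. The share of Otc was 3.76% and 0.352%, that of Gls2 3.76% and 0.983%, and that of Arg1 20.01% and 10.9%.

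**Figure D3:**
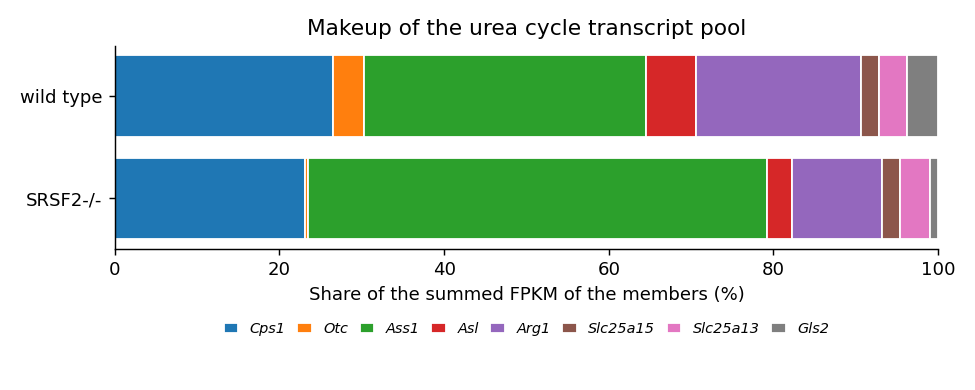
Share of each member in the summed FPKM of the 8 members (x axis, percent), 1 bar per library. Ass1 takes 34.3% in the wild-type and 55.8% in the SRSF2-/- library, and the Otc segment shrinks from 3.76% to 0.352%.

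Each paralog described here, serving other tissues or pools, stood below its own hepatic counterpart in both libraries. Arg2, the mitochondrial arginase, had 10 reads in WT and 122 in SRSF2-/- (0.266 and 3.28 FPKM), 12.3-fold higher (6.49 to 26.4), and Arg1 still stood 85.97-fold above it in SRSF2-/- (71.9 to 103). The aspartate carrier Slc25a12 was at 8.81 and 10.03 FPKM, and Slc25a13 exceeded it 7.61-fold in WT (7.03 to 8.24) and 9.60-fold in SRSF2-/- (8.92 to 10.3). Slc25a2, a further ornithine carrier, had 1 and 21 reads. Cad, which makes carbamoyl phosphate for pyrimidines, was at 3.23 and 2.72 FPKM. Nags, whose product makes the activator of CPS1, was not matched and is not analysed here.

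Genes listed around nitrogen entry to the cycle lay on both sides. Not all of them bring nitrogen, since the list also holds Car5a, Mdh1, Mdh2, Fh1 and Oat. Of 13 tested genes 3 were at least 2-fold lower and 4 higher, with a median log2 ratio of 0.37 (-0.18 centred, with 3 lower and 2 higher). Over all tested genes 2.95% were lower and 19.2% higher (6.66% and 5.67% when centred). Sds, the serine dehydratase that frees ammonia from serine, stood at 39.9 FPKM in WT and 1.56 FPKM in SRSF2-/-, 25.6-fold lower (19.3 to 34.6). Car5a, the mitochondrial carbonic anhydrase that supplies bicarbonate to CPS1, stood at 20.9 and 2.25 FPKM, a SRSF2-/- level of 0.108 of WT (0.0833 to 0.137). Gpt2, a mitochondrial alanine aminotransferase, was 13.1-fold higher (12.1 to 14.3), at 4.78 FPKM in WT and 62.8 FPKM in SRSF2-/-. Glud1, the glutamate dehydrogenase and the most abundant of the list, was at 347.5 and 390 FPKM.

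Among 12 tested genes of glutamine and glutamate use, 2 reached 2-fold higher and 0 reached 2-fold lower (2 and 1 when centred), with a median log2 ratio of 0.57 (0.01 centred). The 2 higher were Asns, the asparagine synthetase, at 7.84 and 29.9 FPKM, and Ctps, a CTP synthase, at 1.06 and 7.17 FPKM. Over all tested genes 19.2% were higher and 2.95% lower (5.67% and 6.66% when centred). Gss, the glutathione synthetase, was at 25.04 and 43.2 FPKM. Glul, the glutamine synthetase that removes ammonia near the central vein, was at 213 and 149.6 FPKM, 1.42-fold lower (1.39 to 1.46). The Glul to Gls2 ratio was 2.91 in WT (2.82 to 3.01) and 5.86 in SRSF2-/- (5.57 to 6.17).

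Genes that use arginine and ornithine outside the cycle had a median ratio near that of all genes. Of 20 tested genes of arginine, ornithine, proline and polyamine metabolism, 17 had a log2 ratio above 0, against 84.5% of all tested genes. At 2-fold 7 were higher and 1 lower, which became 1 higher and 3 lower once centred. The shares over all tested genes were 19.2% higher and 2.95% lower, or 5.67% and 6.66% once centred. The median log2 ratio was 0.61, close to that of all genes. Oat, the ornithine aminotransferase that draws ornithine from the cycle, stood at 29.8 and 87.0 FPKM, 2.92-fold higher (2.77 to 3.09). Sat1, which acetylates polyamines for export, stood at 27.2 and 81.4 FPKM, 2.99-fold higher (2.76 to 3.24). Oaz1, the antizyme that limits ornithine decarboxylase, was the most abundant at 132 and 179 FPKM.

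Of 17 tested carriers and channels 3 reached 2-fold lower and 4 reached 2-fold higher (3 and 1 when centred). The shares over all tested genes were 2.95% and 19.2% (6.66% and 5.67% when centred). Slc38a3, the glutamine carrier of periportal hepatocytes, stood at 342 FPKM in WT and 109 FPKM in SRSF2-/-, 3.14-fold lower (3.06 to 3.23). Gls2, which acts on glutamine, was also lower, and a link with Slc38a3 was not tested. Slc25a22, a mitochondrial glutamate carrier, stood at 39.3 and 97.0 FPKM, 2.47-fold higher (2.36 to 2.58). Aqp3, a water and glycerol channel, had 4 reads in WT and 107 in SRSF2-/-.

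Transcription factors, receptors and deacylases known to act on urea cycle genes or enzymes were within 2-fold with 2 exceptions once 1 FPKM was added. Of 16 tested genes 2 reached 2-fold higher and 0 reached 2-fold lower (2 and 3 when centred), with a median log2 ratio of 0.06 (-0.49 centred). Over all tested genes the shares were 19.2% and 2.95% (5.67% and 6.66% when centred). Hnf4a, a nuclear receptor of hepatocytes, was at 90.6 and 93.2 FPKM. Cebpa, whose product activates hepatocyte genes including several of the cycle, was at 83.9 and 42.7 FPKM, 1.964-fold lower (1.88 to 2.05). Foxa2, a further hepatocyte transcription factor, was at 11.0 and 5.04 FPKM, just short of 2-fold once 1 FPKM is added (log2 ratio -0.99). Creb1, the cyclic AMP response factor, was at 1.75 and 4.06 FPKM, 2.31-fold higher as a plain ratio (2.05 to 2.61) and 0.88 on the log2 scale with 1 FPKM added. Gcgr, the glucagon receptor, was at 30.9 and 24.2 FPKM. The 2 higher genes were Cebpd (4.59 and 26.8 FPKM) and Atf4 (35.2 and 116 FPKM), transcription factors of the acute phase and of amino acid stress.

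Periportal genes of the lobule differed in both directions, and the pericentral genes past 2-fold were mostly lower. Of 12 tested periportal genes, among which Gls2 is listed, 4 reached 2-fold lower and 3 reached 2-fold higher (5 and 2 when centred). Hal, the histidine ammonia-lyase, was 11.4-fold lower (9.95 to 13.1) at 36.4 FPKM in WT and 3.20 FPKM in SRSF2-/-. The apolipoprotein gene Apoa4 was at 52.7 and 861 FPKM. The gluconeogenic Pck1 was at 511 and 596 FPKM, 1.17-fold higher as deposited, with a centred log2 ratio of -0.33. Of 13 pericentral genes 6 reached 2-fold lower and 1 reached 2-fold higher (7 and 0 when centred). Their median log2 ratio was -0.51 (-1.06 centred). Of all tested genes 2.95% were at least 2-fold lower and 19.2% higher (6.66% and 5.67% when centred). Cyp2e1 stood at 1938 and 568 FPKM, Rgn at 189 and 40.6 FPKM, Slc13a3 at 120 and 27.8 FPKM and Cyp1a2 at 117 and 26.8 FPKM. Oat, which is on this list too, was the 1 gene at least 2-fold higher. Within 2-fold were Glul, Lgr5, Axin2, Tbx3, Rnf43 and Aldh1a1, with log2 ratios of -0.51, 0.26, 0.37, -0.19, 0.07 and 0.77. Centred, these were -1.06, -0.29, -0.18, -0.74, -0.48 and 0.22. Across all companion lists together, with members left out and genes counted once, 13 of 95 tested genes reached 2-fold lower and 21 reached 2-fold higher (20 and 10 when centred), with a median log2 ratio of 0.31 (-0.24 centred).

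**Figure D4:**
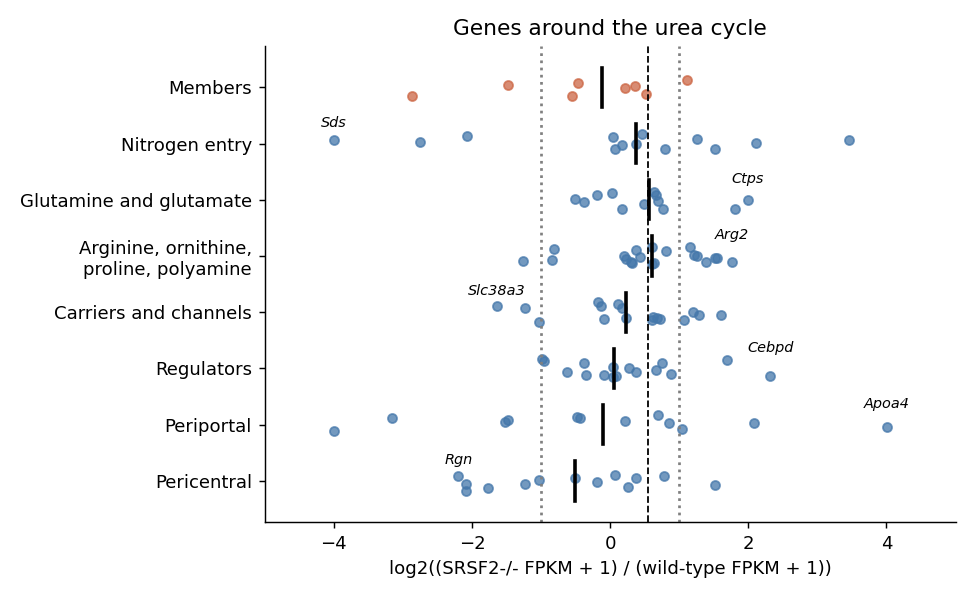
Log2 ratio (x axis) of each tested gene in the members (orange) and in 7 lists of genes around the cycle (blue); black bars are medians, dotted lines 2-fold and the dashed line the median of all genes. Sds, Apoa4 and the other labelled genes have the largest absolute ratio of their list; the members' median of -0.12 lies left of the dashed line.

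Genes with levels most like Otc and Ass1 were sought among 4816 named genes that reached 10 FPKM in WT or SRSF2-/-, by distance in the plane of log2(FPKM + 1) in the 2 libraries. Nearest to Otc were BC024386 (67.5 and 10.6 FPKM), the tryptophan dioxygenase gene Tdo2 (80.4 and 10.8 FPKM) and the complement gene C8a (65.3 and 10.8 FPKM). Nearest to Ass1 were the ferritin genes Ftl1 (679 and 1503 FPKM) and Fth1 (665 and 1375 FPKM) and the clusterin gene Clu (635 and 1319 FPKM). With 2 libraries this likeness rests on 2 values per gene.

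Markers of several cell types moved between the libraries with these results. In bulk tissue, fewer cells of a type and less RNA per cell cannot be told apart. Beside the counts below, 2.95% of all tested genes were at least 2-fold lower and 19.2% higher (6.66% and 5.67% when centred). The 8 hepatocyte markers were abundant in both libraries, as the label liver requires, and summed to 79755 FPKM in WT and 38989 FPKM in SRSF2-/-, with 3 at least 2-fold lower and 1 higher (7 and 1 when centred). Of 7 cholangiocyte markers 4 were at least 2-fold higher (sums of 43.4 and 112 FPKM), of 6 macrophage markers 2 (205 and 460 FPKM), and of 6 stellate cell markers 4 (152 and 407 FPKM), which became 2, 0 and 1 when centred. The 6 endothelial and 5 erythroid markers held 0 past 2-fold, with sums of 108 and 127 FPKM and of 259 and 184 FPKM, but 2 of the erythroid markers, Hbb-bt and Alas2, were at least 2-fold lower when centred (-1.06 and -1.35). All 6 tested exocrine pancreas markers were higher (4.61 and 522 FPKM over 7, Pnlip at 0 reads in WT), as were 4 of 4 tested skeletal muscle markers (0.158 and 63.1 FPKM over 5, Acta1 and Myh4 at 0 reads in WT). Of the 5 kidney and intestine markers 1 was tested and 0 passed 2-fold (17.0 and 29.8 FPKM), with Umod and Slc34a1 at 0 reads in WT. The part of these cells in the values of the urea cycle genes was not tested.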

How the data were processed

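Liver RNA was measured in 1 wild-type and 1 SRSF2-/- library, grouped by the genotype label. Reads were aligned with Bowtie 0.12.2 to mouse build mm9, per the submitters' processing notes. How reads were counted, on which annotation release, with or without strand and with which rule for multi-mapping reads is not stated. Per the file headers, the deposited tables hold a read count and an FPKM per RefSeq accession, both made by the authors.

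Accessions were named from RefSeq (GRCm38.p6) and GENCODE tables. Names were found for 23419 of 26449, and the rest took 1.99% and 1.98% of reads. Reads and FPKM were summed per gene. Current symbols were used, since Asl and Arg1 are also older names of Adsl and Tinagl1. Poisson, Clopper-Pearson and Woolf 95% intervals come from reads and cover counting error only. No p-value was computed.

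Members and lists were chosen with earlier results of these data known. Named besides the members are, per list, the 3 largest absolute ratios and the most abundant gene, some fixed paralogs and regulators, and the 3 genes nearest to the extreme members. One gene of these lists is not reported here. Outside this rule, Spryd4, Xist, Srsf2, Creb1, the pericentral genes within 2-fold, some genes of the nitrogen entry list and some cell type markers are given as context. The closing section names 6 carriers and enzymes chosen after their values were seen. Tried were 12 alternatives in pseudocount, filter, scaling, accession, measure and size rule, and 2 added after the data were seen. Values were computed in Python 3.11.15 (scipy 1.17.1, numpy 2.4.6, pandas 2.3.3) and plotted with matplotlib 3.10.9.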

Additional observations from a re-analysis of the deposited data

How the results depend on the processing

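With 1 library per genotype no setting could be checked against replicates. No paired analysis was possible because each group has 1 library and no test was made. Otc, Gls2, Asl and Arg1 stayed below 0 and Ass1 above 0 in 8 of 8 alternatives that give a ratio (Otc from -3.43 to -2.47, Gls2 from -2.09 to -1.36, Ass1 from 0.47 to 1.12), while Cps1 changed sign in 3 and each carrier in 2. Some of these alternatives could not turn a sign, since a pseudocount keeps it and each member had 1 accession. Centring, upper quartile scaling and scaling without the 20 most abundant genes lowered every member's ratio. The signs of Otc, Gls2, Asl and Arg1 were thus not put at risk by them. The counts at least 2-fold lower and higher were 2 and 1 for members, 368 and 2396 for all genes and 13 and 21 for the companion lists. Centring gave 4 and 0, 831 and 708, and 20 and 10, and upper quartile scaling 4 and 0, 782 and 744, and 20 and 10. Scaling without the 20 most abundant genes left 0 members, 1208 genes and 13 companion genes higher. A size rule of 4-fold gave 1 and 0, 94 and 344, and 7 and 5. A size rule of 1.5-fold gave 687 and 5914 of all genes and 40 companion genes higher. For all genes, a pseudocount of 5 gave 232 and 786, and 3797 were higher with a pseudocount of 0.1 and 4039 by reads without one. The median log2 ratio of the companion lists, 0.31 as reported, was -0.24 when centred, -0.20 with upper quartile scaling, 0.072 without the 20 most abundant genes, 0.20 with a pseudocount of 5 and 0.42 by reads. The cause of these shifts was not tested. A mean of at least 10 FPKM, added after the data were seen, left 231 and 858, and leaving out pancreas and muscle markers, also added, 368 and 2386.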

Other observations

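Further carriers of the cycle's substrates and product were compared, chosen after their values were seen. Aqp9, a channel through which hepatocytes pass glycerol and urea, was at 94.5 and 86.5 FPKM (WT first, then SRSF2-/- throughout). Slc14a1, a urea transporter, had 27 and 103 reads. Rhbg, an ammonium carrier of pericentral hepatocytes, stood at 6.43 and 2.63 FPKM and Slc1a2, a glutamate carrier of the same cells, at 4.02 and 1.14 FPKM. Slc7a2, which takes up cationic amino acids such as arginine, stood at 25.9 and 55.3 FPKM. Agmat, named for the hydrolysis of agmatine to urea, was at 61.8 and 76.4 FPKM.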
